A study of Mus musculus with 3 samples.

Results

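The replication-dependent histone genes encode the H1, H2A, H2B, H3 and H4 proteins that package newly copied DNA. They were taken as every non-control probe of the scanner files whose gene name starts with Hist1h, Hist2h, Hist3h or Hist4h. This gave 34 genes on 44 probes, of 27670 gene names on 41174 probes of the array. Where a gene had several probes, the brightest on average over the 6 channels (mean of log2 intensities) stood for it. H1 had 6 genes, H2A 11, H2B 8, H3 3 and H4 6. Testing required a signal well above background, per the scanner's flag, in 1 group on 2 or more arrays, and 32 of the 34 genes passed. Hist1h2be was not well above background in any library, and Hist1h3a was so in control library 1 only. A further 4 genes, Hist1h2ab, Hist1h2ac, Hist1h2ae and Hist2h2aa2, passed the filter without being well above background in every library, so 28 genes were measured in all 6 libraries.

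The study compared multipotent progenitors, the early bone marrow cells that give rise to lymphoid and myeloid blood cells, with and without the transcription factor Mef2c. Mutant mice carried Mx1-Cre and floxed Mef2c alleles (Mef2c f/f), and control mice carried the floxed alleles without Cre. Both received poly(I:C), an RNA analog that induces the Mx1 promoter of the Cre transgene, on 4 days at 250 µg, and marrow was taken 2 days after the last injection. Per sample 15000 cells that lacked lineage markers and carried c-kit and Sca-1 were sorted, and their mRNA was amplified as cDNA by a global PCR. Each of 3 Agilent arrays carried cDNA of 1 mutant sample in Cy3 and 1 control sample in Cy5, as labelled. Controls carry no Cre and the labels give no dye swap, so the genotype, the Cre transgene and the dye cannot be told apart. Whether the replicates are separate animals is not stated in the labels, and p-values may then cover technical spread only.

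Of all probes, 73.4% to 80.4% had a signal well above background, depending on the library, and 0 spots were saturated. The genes of the sorting gate, Kit and Ly6a (Sca-1), together with Cd34 and Flt3, were well above background in all 6 libraries, and some markers had ratios of 1 sign on every array. Log2 ratios of mutant over control are given for arrays 1, 2 and 3 in turn. Flt3, a receptor of lymphoid-primed progenitors, had -1.02, -1.26 and -1.19, and Ly6a had 0.93, 0.51 and 1.02. Kit, with -0.66, -0.64 and 0.22, and Cd34, with -0.43, -0.61 and 0.17, did not keep 1 sign. Of the marker genes of cells outside the gate, picked for naming after their values were seen, Itgam (Mac-1) had -1.28, -1.05 and -0.83, the macrophage gene Adgre1 0.94, 1.23 and 0.84, and the red cell genes Hba-a1 -1.94, -2.55 and -0.54 and Slc4a1 -2.32, -0.93 and -0.72. Not all erythroid genes ran this way: Klf1 had 1.41, 0.45 and 0.05, Alas2 1.21, -0.10 and -0.89, and Epor only -0.01, -0.26 and -0.14. The mean log2 level of the 5 measured lineage markers was 10.1 to 10.3 in the mutant and 10.4 to 10.7 in the control libraries. That of 5 erythroid genes was 10.28 to 10.94 in the mutant and 10.96 to 11.27 in the control libraries, so the ranges nearly touched. For 3 macrophage genes it was 11.5 to 12.0 and 10.9 to 11.4 in turn. The remaining macrophage gene, Mrc1, was not well above background. None of these genes was called over all genes, and their part in the histone and S phase ratios below was not tested. For the tested probe of Mef2c the 3 ratios were 0.08, 0.10 and -0.96 (mean -0.26 ± 0.61, SD, n = 3; adjusted p = 0.741 by limma). The floxed stretch of Mef2c is not named in the labels, so this probe checks nothing about the genotype. A dimmer Mef2c probe, well above background in 3 of the 6 libraries, had 1.07, 0.22 and 0.28, above 0 on every array. In the authors' deposited table of log2 ratios, array 2 has the opposite sign to arrays 1 and 3, although all 3 are labelled with the same dyes. Signs below follow the labels, and if array 2 was a dye swap its ratios have the wrong sign. Control library 1 stood apart in marker genes: the mean log2 level of 8 immediate early genes was 15.7 there and between 10.6 and 12.6 in the other 5 libraries, and that of 6 neutrophil genes was 13.6 against 9.48 to 10.7. All 14 of these marker genes were well above background in every library.

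Replication-dependent histone genes are transcribed in S phase, when a dividing cell doubles its DNA and needs histone protein in step. Their mRNAs have no introns and mostly end in a stem-loop bound by Slbp in place of a poly(A) tail, and they are degraded when DNA synthesis stops. The genes lie in clusters with many near-identical copies, and H2A and H2B genes often stand head to head around a shared promoter. Replacement histones such as H3.3 are made from polyadenylated mRNAs throughout the cell cycle. Some members, among them Hist1h1c, Hist1h2bc and Hist2h2be, can also give polyadenylated mRNA. The labels do not say whether the beads that isolated mRNA, or the cDNA priming, relied on poly(A) tails, and how completely stem-loop mRNAs were captured was not tested.

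Promoters are shown for 7 members on which the results below turn: the 2 H1 genes with the lowest and the highest mean ratio, an H2A, an H2B and an H3 gene measured through probes shared with near-identical copies, the H4 gene with the lowest ratio, and the testis histone gene Hist1h2ba, whose promoter is shared with Hist1h2aa. Each sequence is the 250 bases before the gene's start in the direction of transcription (RefSeq, build GRCm38.p6), and 29 of the 34 members had such an entry. Capitals mark matches, on either strand, to the TATA box (TATAAA), the CCAAT box (CCAAT), the octamer of H2B promoters (ATTTGCAT) and the AC box of H1 promoters (AAACACA).
Hist1h1d (H1f3), chr13:23554782-23555031, plus strand: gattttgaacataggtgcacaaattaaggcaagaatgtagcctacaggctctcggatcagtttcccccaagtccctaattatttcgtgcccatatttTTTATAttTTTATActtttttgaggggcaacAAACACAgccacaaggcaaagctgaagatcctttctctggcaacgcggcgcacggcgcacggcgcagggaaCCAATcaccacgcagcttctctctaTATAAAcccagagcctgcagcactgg
Hist1h1e (H1f4), chr13:23622559-23622808, minus strand: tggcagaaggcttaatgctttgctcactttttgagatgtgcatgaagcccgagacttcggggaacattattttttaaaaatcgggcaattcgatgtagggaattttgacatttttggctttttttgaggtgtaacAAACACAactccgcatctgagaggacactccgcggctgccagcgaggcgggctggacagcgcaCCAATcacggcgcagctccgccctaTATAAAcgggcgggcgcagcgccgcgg
Hist2h2ac (H2ac20), chr3:96220881-96221130, minus strand: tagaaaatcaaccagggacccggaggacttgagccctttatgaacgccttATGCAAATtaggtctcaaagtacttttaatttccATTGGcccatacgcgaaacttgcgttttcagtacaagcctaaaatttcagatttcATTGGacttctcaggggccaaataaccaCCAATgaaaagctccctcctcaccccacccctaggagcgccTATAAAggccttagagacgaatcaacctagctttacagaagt
Hist1h2ba (H2bc1), chr13:23934157-23934406, minus strand: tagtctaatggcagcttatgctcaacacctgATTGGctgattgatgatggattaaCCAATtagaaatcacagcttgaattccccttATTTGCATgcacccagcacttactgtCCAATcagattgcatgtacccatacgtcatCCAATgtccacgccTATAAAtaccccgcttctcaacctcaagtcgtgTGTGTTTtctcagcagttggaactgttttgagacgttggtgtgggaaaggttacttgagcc
Hist1h2bk (H2bc12), chr13:22035571-22035820, plus strand: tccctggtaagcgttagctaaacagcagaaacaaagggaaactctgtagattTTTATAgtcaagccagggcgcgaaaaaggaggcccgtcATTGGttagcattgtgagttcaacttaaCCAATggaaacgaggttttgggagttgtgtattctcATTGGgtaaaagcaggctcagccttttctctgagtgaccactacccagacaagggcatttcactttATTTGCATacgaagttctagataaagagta
Hist2h3c1 (H3c14), chr3:96246435-96246684, plus strand: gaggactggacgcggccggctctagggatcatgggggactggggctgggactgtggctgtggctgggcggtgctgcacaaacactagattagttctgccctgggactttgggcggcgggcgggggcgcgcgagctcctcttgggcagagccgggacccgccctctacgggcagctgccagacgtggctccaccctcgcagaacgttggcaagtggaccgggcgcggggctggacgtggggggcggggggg
Hist1h4i (H4c9), chr13:22041363-22041612, minus strand: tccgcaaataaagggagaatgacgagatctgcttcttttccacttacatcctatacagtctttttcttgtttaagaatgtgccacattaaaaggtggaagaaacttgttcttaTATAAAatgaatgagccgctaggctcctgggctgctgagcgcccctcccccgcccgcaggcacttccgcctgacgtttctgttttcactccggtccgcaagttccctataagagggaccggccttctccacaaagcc

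Among the 29 members with an entry, CCAAT was found in 25, against 33.85% of all 32851 promoter windows of the same length. TATAAA was found in 16 members, against 12.37% of all windows. The octamer was found in 6 of 11 H2A and 4 of 5 H2B windows and in no H1, H3 or H4 window, against 1.6% of all windows. The H1 AC box was found in 5 of 6 H1 windows, in 2 H2A and 2 H2B windows, and in 6.25% of all windows. The missing H1 gene was Hist1h1a. The windows of Hist1h2ba and Hist1h2aa overlap, with 281 bases between the starts of the genes, so the same stretch is counted for both. None of the 4 motifs contains another, and a match describes the sequence only.

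The median over replication-dependent histone genes lay lower in the mutant on array 1 and closer to that of all genes on arrays 2 and 3. The family was split on array 1: of 11 H2A genes, 8 lay above 0 there, with a class median of 0.25. No member passed the test on all 3 arrays together. The log2 ratio of mutant over control had a median over the 32 tested members of -0.57 on array 1, -0.08 on array 2 and -0.20 on array 3, where the median over all 22215 genes was -0.07, -0.05 and 0.00418. The mean ratio lay below 0 for 25 of the 32 members, against 54.6% of all genes. By limma with Benjamini-Hochberg adjustment over all genes, 0 of 32 members had an adjusted p under 0.05, as had 0 of 22215 genes (0%), and the smallest adjusted p of a member was 0.492. At an unadjusted p under 0.05, 1 member was lower and 0 were higher, against 5.32% and 4.81% of all genes. Lower on all 3 arrays were 7 of 32 members, against 20.3% of genes, and higher on all 3 was 1 member, against 15.2%. The shares of members lower at an unadjusted p under 0.05 and lower on all 3 arrays are near the background. In bulk samples, fewer cells of a type and less RNA per cell cannot be told apart.

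On array 1, 23 of the 32 members lay below 0, against 54.3% of genes. On array 2 the count was 20, where 12231 genes lay below 0 and 9981 above. On array 3 it was again 23, where 11019 genes lay below 0 and 11192 above. Of the 32 members, 16 had the highest of their 6 levels in control library 1, against 25.6% of all genes. On array 1 the ratio was -1 or less, a difference of at least 2-fold, for 10 members, or 31.25%, against 8.89% of genes: 2 were H1, 1 was H2A, 4 were H2B, 2 were H3 and 1 was H4. Control library 1 also had the highest mean level of the immediate early and of the neutrophil markers. The neutrophil gene Mmp8 was the exception, with 12.5 there and 13.1 in mutant library 3. The part of these markers in the histone ratios was not tested. Without array 1, the median over members of the mean ratio was -0.16, where that of all genes was -0.02; with all 3 arrays these were -0.27 and -0.04.

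**Figure D1:**
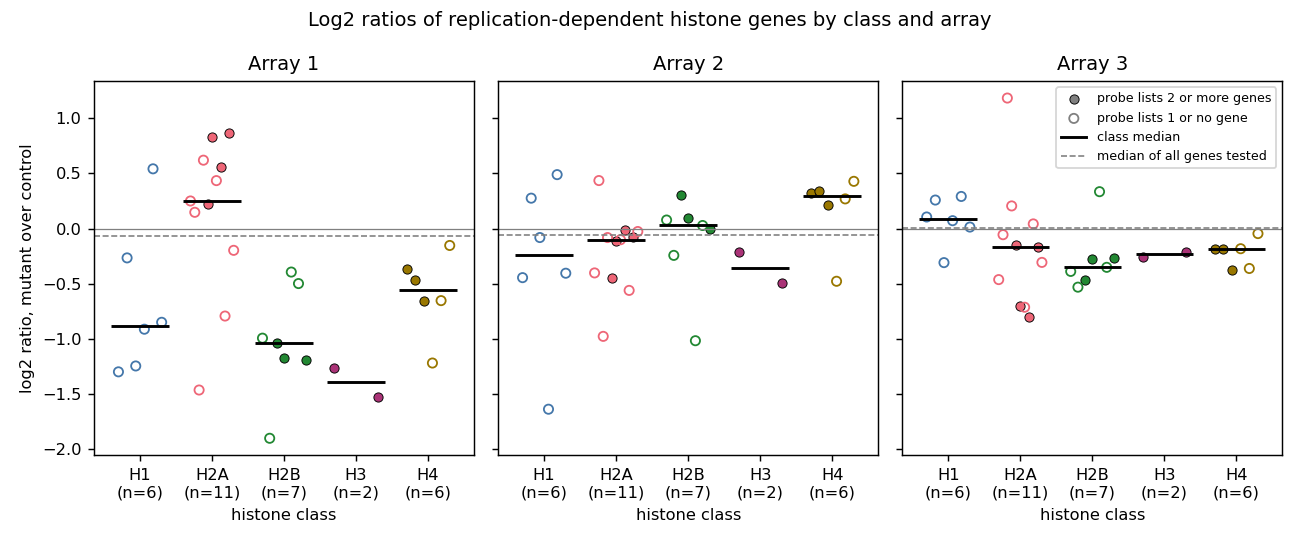
Log2 ratios of mutant over control (vertical axis) of the 32 tested members by class, with 1 panel per array, black bars at class medians and a dashed line at the median of all genes. On array 1 the H2A median was 0.25 while those of H1, H2B, H3 and H4 lay between -1.39 and -0.56; on array 3 all class medians lay between -0.35 and 0.09, the H1 median falling below 0 with median centring (-0.09).

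The linker histone H1 binds DNA between nucleosomes and compacts chromatin. The 6 H1 genes had a median log2 ratio of -0.88 on array 1, -0.24 on array 2 and 0.09 on array 3, the last at -0.02 if the scanner's processed signals are used and -0.09 with median centring in place of loess, and 4 of 6 mean ratios were below 0. All 6 H1 probes list a single RefSeq gene, but whether they also take up mRNA of other H1 genes was not tested. The H1 class held the highest and the second lowest mean ratio of the 32 tested members.

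Hist1h1e (H1.4) was the only member higher in the mutant on all 3 arrays. Its log2 level was 9.53, 9.63 and 9.78 in the mutant and 8.99, 9.14 and 9.49 in the control libraries. The groups did not overlap, although mutant 1 and control 3 lay close together. The log2 ratio was 0.54, 0.49 and 0.29 (mean 0.44 ± 0.13, SD, n = 3), or 1.36-fold, with an adjusted p of 0.504 by limma. Non-overlapping levels were found for 5 of the 32 members, against 19% of all genes.

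Hist1h1d (H1.3) had the lowest mean of its class. Its log2 level was 8.03, 8.44 and 8.47 in the mutant and 8.94, 10.1 and 8.40 in the control libraries. Control 2 was the highest and control 3 lay among the mutants, so the groups overlapped. The log2 ratio was -0.91, -1.64 and 0.07 (mean -0.83 ± 0.86, SD, n = 3; adjusted p = 0.495 by limma). Its other 2 probes were well above background in 2 libraries and in none, and passed no filter.

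Hist1h1a (H1.1) had log2 ratios of -1.30, -0.44 and 0.11 (mean -0.55 ± 0.71, SD, n = 3). Its level was 11.8 in control library 1 and between 10.5 and 11.2 in the other 5 libraries. Hist1h1b (H1.5) had -0.27, 0.28 and 0.26 (mean 0.09 ± 0.31, SD, n = 3) and thus no common direction. Hist1h1c and Hist1h1t, the latter a linker histone of male germ cells, chosen with their values in view, had means of -0.54 and -0.41. Within H1, then, 5 of 6 genes lay below 0 on array 1 and, as scaled by loess, 5 of 6 above 0 on array 3.

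H2A and H2B form the dimers on the outside of the nucleosome and are needed in equal amounts. On array 1 their genes lay apart: the median log2 ratio was 0.25 over 11 H2A genes, 8 of them above 0, and -1.04 over 7 H2B genes, all 7 below 0. The difference between the class medians, H2A minus H2B, was 1.29, -0.13 and 0.18 on arrays 1, 2 and 3 (mean 0.45 ± 0.75, SD, n = 3). With 3 arrays the smallest p that an exact two-sided sign-flip test allows is 0.25, so no p is given for it. Under the other scalings run, the array 1 median stayed above 0 for H2A and below 0 for H2B, H3, H4 and H1. On array 2 the H2A median was -0.10 and the H2B median 0.03, which was -0.04 with processed signals and -0.14 with median centring, and on array 3 they were -0.17 and -0.35.

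Hist2h2ac had the highest mean among the well measured H2A genes. Its log2 level was 14.9, 14.4 and 14.3 in the mutant and 14.0, 14.5 and 14.5 in the control libraries. Mutant 1 was the highest and control 1 the lowest of the 6, and the others lay close together. Its log2 ratio was 0.87, -0.08 and -0.17 (mean 0.21 ± 0.57, SD, n = 3; adjusted p = 0.783 by limma). Its probe lists 4 RefSeq genes, H2ac20, H2ac21, H2ac19 and H2ac18, so the signal cannot be assigned to a single copy.

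Hist1h2ai, whose probe also lists 4 H2A genes, had levels of 13.1, 12.7 and 12.0 in the mutant and 12.2, 12.8 and 12.7 in the control libraries. Mutant 1 was high and mutant 3 low, and the groups overlapped. The log2 ratio was 0.83, -0.11 and -0.70, which averaged 0.00493 ± 0.77 (SD, n = 3). Hist2h2aa1, with 2 genes listed, had 0.56, -0.01 and -0.80, and Hist1h2af, with 2 genes listed, had 0.23, -0.45 and -0.15. All 4 of these shared H2A probes thus lay above 0 on array 1 and below 0 on arrays 2 and 3.

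The probes of Hist3h2a, an H2A gene outside the main clusters, disagreed. Its brightest probe had log2 ratios of -0.20, -0.03 and -0.31, with levels of 14.0, 14.2 and 13.9 in the mutant and 14.2, 14.2 and 14.3 in the control libraries. The groups did not overlap, but by a small margin (mean -0.18 ± 0.14, SD, n = 3; adjusted p = 0.751 by limma). A second probe, 169 bases away, had 0.34, -0.03 and -0.72, and another, 567 bases away, had -2.08, -0.94 and 0.13. On array 1 the 3 probes therefore ran from clearly below to above 0. Among dim H2A genes Hist1h2ac, chosen with its values in view, had -1.46, -0.98 and 1.18, the highest ratio of any member on array 3.

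Hist1h2bc, an H2B gene, had the lowest mean of all members and the only unadjusted p under 0.05 (0.0496; adjusted p = 0.492 by limma). Its log2 level was 10.1, 9.88 and 10.2 in the mutant and 12.0, 10.1 and 10.7 in the control libraries. Control 1 lay far above the other 5, and control 2 lay among the mutants. The log2 ratio was -1.90, -0.24 and -0.53 (mean -0.89 ± 0.89, SD, n = 3), or 1.85-fold lower in the mutant. Without array 1 the mean was -0.39, with an unadjusted p of 0.212. The second probe under this name lies 1854820 bases away on chromosome 13 in the scanner files, and had -2.52, 0.11 and 0.19.

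Hist1h2bk, Hist1h2bm and Hist3h2bb have probes that list 4, 4 and 2 RefSeq genes and gave like ratios. Hist1h2bk had levels of 12.8, 13.6 and 12.7 in the mutant and 13.9, 13.3 and 13.2 in the control libraries. Its ratios were -1.04, 0.30 and -0.47, against -1.17, 0.10 and -0.28 for Hist1h2bm and -1.19, -0.00439 and -0.27 for Hist3h2bb. In all 3 the level in control library 1 was the highest of the 6, and none passed (adjusted p between 0.562 and 0.628 by limma). Hist2h2be ran differently, with -0.39, -1.02 and 0.33, and Hist3h2ba had -0.50, 0.03 and -0.35.

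Hist1h2aa and Hist1h2ba, which encode testis forms of H2A and H2B, were the only members with promoter entries that stood head to head with both genes measured, each by a probe that lists 1 gene. This pair was chosen after its values were seen. Hist1h2aa had levels of 14.4, 14.2 and 14.0 in the mutant and 14.2, 14.6 and 14.4 in the control libraries, with ratios of 0.25, -0.40 and -0.46. Hist1h2ba had levels of 12.3, 12.8 and 12.3 in the mutant and 13.3, 12.7 and 12.7 in the control libraries, with ratios of -0.99, 0.08 and -0.39. The promoter printed above thus serves an H2A gene that lay above 0 on array 1 and an H2B gene that lay below 0, with a difference in log2 ratio of 1.24, -0.48 and -0.07 on the 3 arrays. Whether these probes also take up mRNA of other H2A and H2B copies was not tested.

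**Figure D2:**
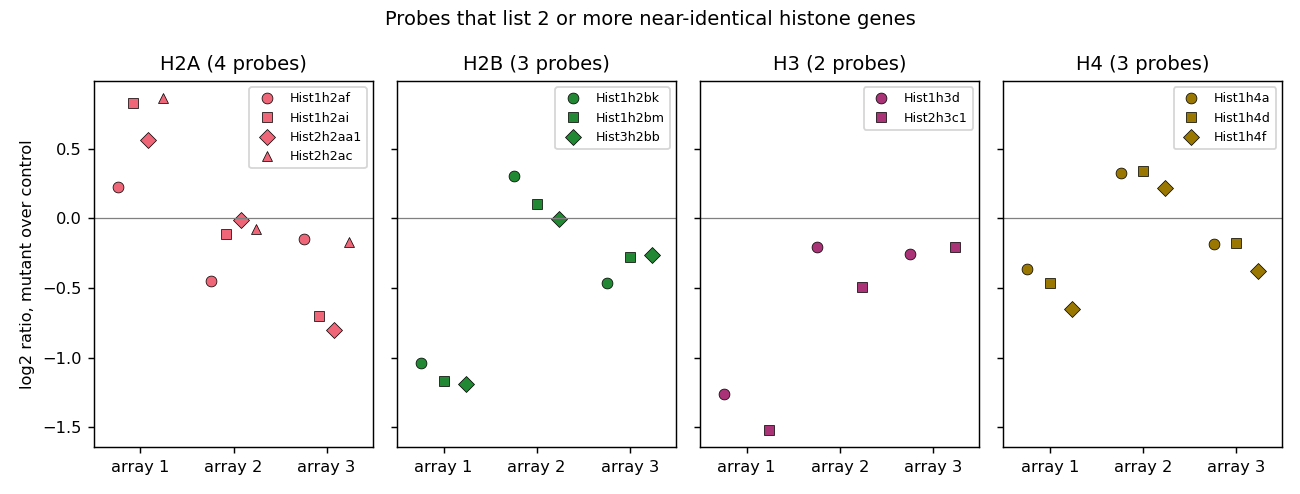
Log2 ratios of mutant over control (vertical axis) by array for the 12 members whose probe lists at least 2 RefSeq genes, in a panel per class. On array 1 the 4 H2A probes lay between 0.23 and 0.87, the 3 H2B probes between -1.19 and -1.04, the 2 H3 probes between -1.52 and -1.26 and the 3 H4 probes between -0.65 and -0.36.

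Of the 34 members, 12 had a probe that lists at least 2 RefSeq genes: 4 of H2A, 3 of H2B, 2 of H3 and 3 of H4. The scanner files name at most 4 entries per probe, so the real number of matching copies can be larger. On array 1 the median of the shared probes was 0.69 for H2A, -1.17 for H2B, -1.39 for H3 and -0.47 for H4. On array 2 it was -0.09, 0.10, -0.35 and 0.32, and on array 3 it was -0.43, -0.28, -0.23 and -0.18. Members read by shared probes are therefore not separate measurements, and their number is no count of genes that changed.

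H3 and H4 form the tetramer at the core of the nucleosome. The 2 tested H3 genes lay below 0 on all 3 arrays, with medians of -1.39, -0.35 and -0.23. Each had its highest level in control library 1, and both are read through probes that list 4 RefSeq genes.

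Hist2h3c1 had log2 levels of 14.4, 14.8 and 14.8 in the mutant and 15.9, 15.3 and 15.0 in the control libraries. All 3 mutants lay below all 3 controls. The log2 ratio was -1.52, -0.50 and -0.21 (mean -0.74 ± 0.69, SD, n = 3), or 1.67-fold lower, with an adjusted p of 0.493 by limma. Hist1h3d had levels of 14.3, 14.8 and 14.7 in the mutant and 15.5, 15.0 and 14.9 in the control libraries, again without overlap. Its log2 ratio was -1.26, -0.21 and -0.26 (mean -0.58 ± 0.60, SD, n = 3; adjusted p = 0.515 by limma). Without array 1 the mean of Hist2h3c1 was -0.35.

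H4 genes differed in direction between arrays. Their median log2 ratio was -0.56 on array 1 with all 6 below 0, 0.30 on array 2 with 5 of 6 above 0, and -0.18 on array 3 with all 6 below 0. The 3 shared probes, of Hist1h4a, Hist1h4d and Hist1h4f, had ratios between -0.65 and -0.36, between 0.22 and 0.34 and between -0.38 and -0.18 on the 3 arrays. Hist4h4 had -0.15, 0.43 and -0.04, the highest H4 ratio on each array among the probes chosen for the genes. Its second, dimmer probe had 0.12, 0.38 and 0.18. A second probe of Hist1h4d, which lists 1 gene, had -0.26, 0.68 and -0.01.

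Hist1h4i was the exception among H4 genes. Its log2 level was 12.4, 12.4 and 12.7 in the mutant and 13.6, 12.9 and 12.9 in the control libraries. The groups did not overlap, with control 1 highest. The log2 ratio was -1.22, -0.48 and -0.18 (mean -0.63 ± 0.53, SD, n = 3; adjusted p = 0.497 by limma), the only H4 ratio below 0 on array 2. Its probe lists no RefSeq gene.

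**Figure D3:**
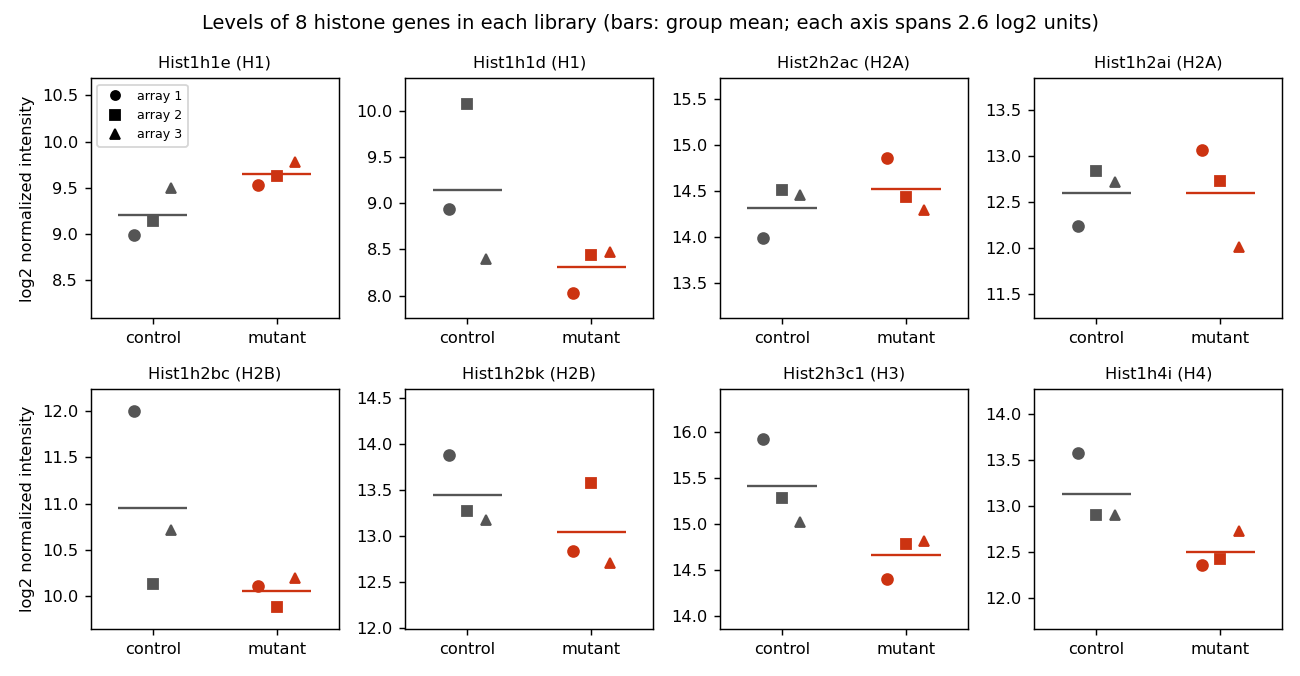
Log2 normalized intensity (vertical axis, 2.6 log2 units in each panel) of 8 histone genes in the 3 control and 3 mutant libraries, with the array as the symbol and bars at group means. Control 1 is the highest library for Hist1h2bc (12.0), Hist1h2bk (13.9), Hist2h3c1 (15.9) and Hist1h4i (13.6), and the lowest for Hist1h1e (8.99) and Hist2h2ac (14.0); levels are not compared between panels.

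As labelled, the order of members carried over weakly between arrays 1 and 2 and did not carry over to array 3. Across the 32 members, Pearson's r of the log2 ratios was 0.29 for array 1 against 2, -0.17 for 1 against 3 and -0.36 for 2 against 3. Over all genes it was 0.31, 0.13 and 0.04. These values describe genes that share libraries and probes. Turning array 2 reverses the sign of r for 1 against 2 and for 2 against 3. Which arrays share an order of members therefore depends on the unsettled sign of array 2. With array 2 turned, 9 of 32 members were lower on all 3 arrays, against 9.46% of genes: 4 of 7 H2B and 5 of 6 H4 genes, but no H1, H2A or H3 gene. None of the 7 members that were lower on all 3 arrays as labelled can be among them, since turning array 2 reverses its sign.

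Genes of DNA replication lay mostly above 0, where most histone genes lay below. Of 27 S phase genes, which encode the replicative helicase, nucleotide synthesis and the replication fork, 23 had a mean log2 ratio above 0 and 22 were higher in the mutant on all 3 arrays, against 15.2% of genes. Their median was 0.61, 0.32 and 0.31 on arrays 1, 2 and 3. The histone median minus the S phase median was -1.19, -0.39 and -0.51 (mean -0.70 ± 0.43, SD, n = 3), and here too the exact test could reach no p below 0.25. By limma 0 were called (smallest adjusted p = 0.461), while 6 of the 27 had an unadjusted p under 0.05, all of them higher, against 4.81% of all genes. This count was 1 without array 1, 3 without array 2, 2 without array 3, 2 with processed signals, 3 with median centring and 0 with array 2 turned.

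The S phase genes with the smallest p-values were Mcm5, Fen1, Rrm2 and Cdc45. Mcm5, a subunit of the replicative helicase, had log2 levels of 14.1, 13.6 and 13.6 in the mutant and 12.9, 12.9 and 13.0 in the control libraries, with no overlap. Its log2 ratio was 1.21, 0.69 and 0.69 (mean 0.87 ± 0.30, SD, n = 3). Fen1, the flap nuclease of lagging strand synthesis, had a mean of 0.65 ± 0.05, Rrm2, of ribonucleotide reductase, 0.71 ± 0.35, and Cdc45, which activates the helicase, 0.81 ± 0.53. With array 2 turned the median of the list was 0.15, and 25 of the 27 mean ratios lay above 0. No member was then higher on all 3 arrays. For the 22 that were so as labelled this could not be otherwise, since turning array 2 reverses its sign.

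Factors that make and end histone mRNA went both ways. Of 23 genes of histone transcription and mRNA processing, 13 lay above 0 and 10 below, with a median of 0.08. By limma 0 were called, and 5 had an unadjusted p under 0.05, 4 of them higher and 1 lower, against 4.81% and 5.32% of all genes. The count of higher genes was 2 without array 1, 1 without array 2, 2 with processed signals or median centring and 0 with array 2 turned, and that of lower genes ran from 0 to 2 over the settings. Slbp binds the stem-loop and, chosen with its values in view, had ratios of -0.48, -0.29 and -0.05. Npat, the coactivator of histone transcription, also chosen so, had -0.04, 0.24 and -0.46.

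Lsm11, a subunit of the U7 particle that guides the cut of histone mRNA, had levels of 8.38, 8.27 and 8.39 in the mutant and 7.56, 7.43 and 7.72 in the control libraries. All mutants lay above all controls, and the log2 ratio was 0.83, 0.83 and 0.67 (mean 0.77 ± 0.09, SD, n = 3; adjusted p = 0.463 by limma). The cyclin E genes Ccne1 and Ccne2, whose product with Cdk2 acts on Npat, had means of 0.77 ± 0.10 and 0.67 ± 0.36 (SD, n = 3). Yy1, a transcription factor, had 0.56 ± 0.14. The 1 lower gene was Zfp473, a zinc finger protein of the U7 complex, with -0.80, -0.37 and -0.48, named after its values were seen.

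Of 24 histone chaperone and import genes, 17 lay above 0 and 7 below, with a median of 0.19. By limma 0 were called, and 4 had an unadjusted p under 0.05, all of them higher, against 4.81% of all genes. This count was 1 without array 1, where the median was 0.12, 2 without array 2, 2 with processed signals, 1 with median centring and 0 with array 2 turned. Asf1b, an H3-H4 chaperone of dividing cells, had levels of 13.3, 13.1 and 13.4 in the mutant and 11.9, 12.2 and 12.9 in the control libraries. Its log2 ratio was 1.34, 0.88 and 0.51 (mean 0.91 ± 0.42, SD, n = 3; adjusted p = 0.463 by limma). Its paralog Asf1a had 0.59 ± 0.11, Ssrp1, of the FACT complex, 0.68 ± 0.11, and Nasp, which holds free H3 and H1, 0.58 ± 0.22.

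Replacement histones lay on the low side, with 12 of 14 below 0, against 54.6% of all genes. The number below 0 was 9 without array 1, 8 with array 2 turned and 10 with the mean of all probes. Their median was -0.19, and on arrays 1, 2 and 3 it was -0.44, -0.12 and -0.21. By limma 0 were called, and 1, H3f3b, had an unadjusted p under 0.05, on the low side, against 5.32% of all genes. This count was 0 without array 1 or with array 2 turned, and 2 without array 2, with processed signals and with median centring. H3f3b, a gene of the replacement histone H3.3, had levels of 14.7, 14.6 and 14.7 in the mutant and 16.2, 15.2 and 15.2 in the control libraries, with no overlap. Its log2 ratio was -1.51, -0.63 and -0.54 (mean -0.90 ± 0.54, SD, n = 3; adjusted p = 0.463 by limma), while the other H3.3 gene H3f3a, chosen with its values in view, had -0.07, -0.13 and -0.37. The probe of the oocyte linker histone H1foo had ratios of -1.21, 0.00839 and -0.46. Its levels were 14.4, 15.4 and 14.8 in the mutant and 15.7, 15.4 and 15.3 in the control libraries. Whether this probe takes up other mRNA was not tested. The spermatid linker histone Hils1, well above background in 4 libraries, had -0.34 ± 0.03 (SD, n = 3), and the macroH2A gene H2afy2 had 0.85, 0.47 and -0.17.

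**Figure D4:**
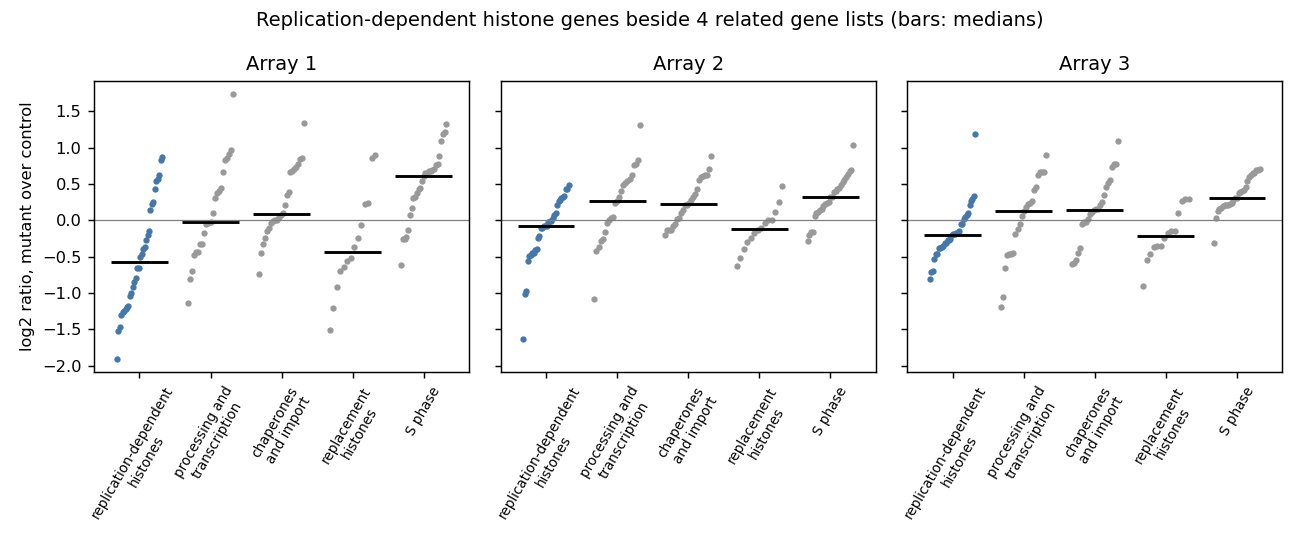
Log2 ratios of mutant over control (vertical axis) of the 32 tested histone members and of 4 related gene lists, 1 panel per array, with points sorted by value and bars at medians. The S phase medians were 0.61, 0.32 and 0.31 on arrays 1, 2 and 3, and those of the histone members -0.57, -0.08 and -0.20.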

How the data were processed

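The members and gene lists were chosen with earlier results of these data known. Per the file headers, the authors' scanner files hold spot intensity on a linear scale, a log10 ratio and background flags, made with Agilent Feature Extraction 9.5.1.1. The authors deposited a separate table of log2 ratios, whose normalization the labels do not give; limma is named, without a version, in the submitters' processing notes. Intensities were background-corrected here with limma 3.58.1 in R 4.3.3 (normexp, offset 50) and normalized by loess within each array. Flagged spots were left out (300, 331 and 252). Levels were also normalized between arrays (Aquantile). Of 41174 probes 32899 passed the filter, giving 22215 genes. Ratios were tested against 0 (lmFit and eBayes) with Benjamini-Hochberg adjustment at 0.05, which was tested on simulated data. Named members were, per class, the up to 2 highest and 2 lowest mean ratios among well measured genes, any unadjusted p under 0.05 and shared-probe sets; of each other list, the 4 smallest p-values. Probe sequences and the build of the scanner files' positions were not used here.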

Additional observations from a re-analysis of the deposited data

How the results depend on the processing

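None of the 32 tested members had an adjusted p under 0.05 under any alternative run. The median over all histone members stayed below 0 under all of them, between -0.41 and -0.16. The number of members lower at an unadjusted p under 0.05 was 1 as reported. It was 0 with no background correction, with no filter, with the mean of all probes and with array 2 turned. It was also 0 with the authors' deposited log2 ratios, in which the sign of array 2 was first set to follow the labels. It was 2 with processed signals and with the strict filter, and 6 with median centring. With an array left out it ran from 0 (without array 1) to 4 (without array 3). The number higher was 1 (Hist1h1e) with no filter. The H2A median ran from -0.26 to 0.17, the latter without array 3, and the H4 median was 0.012 without array 1. Over all genes, 2251 had an unadjusted p under 0.05 (1069 higher, 1182 lower); this was 551 higher and 2321 lower with median centring, which moves the median of all genes to -0.18, 692 and 1549 with processed signals, where that median is -0.13, 644 in all with array 2 turned, and 1297 (without array 1) to 2731 (without array 3) with an array left out. With array 2 turned, Hist1h1b was at -0.094, Hist1h1d at 0.27, Hist1h2aa at 0.063, Hist1h2af at 0.18, Hist2h2be at 0.32 and Hist4h4 at -0.21. With median centring Hist1h1b was at -0.10, Hist1h2ai at -0.073 and Hist4h4 at -0.10, with processed signals Hist1h2ai was at -0.063, and with the mean of probes Hist1h4d was at 0.017. With an array left out, Hist1h1b ran from -0.0031 to 0.27, Hist1h2af from -0.30 to 0.040, Hist1h2ai from -0.41 to 0.36, Hist1h4a from -0.27 to 0.069, Hist1h4d from -0.32 to 0.080, Hist2h2aa1 from -0.41 to 0.27, Hist2h2ac from -0.12 to 0.39 and Hist4h4 from -0.099 to 0.19. The cause was not tested. The number of arrays limits the precision. Each array is a mutant and control pair, so the test of its ratio is itself paired, and no further replicate block could be fitted.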
